A study of Mus musculus with 18 samples.

Results

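Dendritic cells (DCs) of the intestinal lymph nodes were compared between double-positive cells, sorted as CD11b+ CD103+, and CD11b+ single-positive cells, with 3 RNA-seq libraries each. These 6 libraries belong to a set of 18 and were assigned to their groups by their labels, and 17074 of the 54232 genes in the count table passed the filter on low counts and were tested. All 18 libraries carry the genotype label CD11a KO and come from C57BL/6J mice, so what the groups have in common includes a targeted Itgal gene, whose product is an integrin chain also called the LFA-1 alpha chain. The other libraries are CD103+ single-positive DCs of the lymph node and the same 3 sorts from the small intestinal lamina propria, again with 3 libraries each. No wild-type library was analysed here, and the labels give no age, no treatment and no number of mice per library. The labels do not say that the replicates came from separate animals. In both groups, Y-linked transcripts set replicate 3 apart from the other replicates (values below). The p-values measure the spread between these libraries, and how far that spread is technical is not known.

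Conventional DCs take up antigen in the gut wall and carry it in the lymph to the draining lymph nodes, where they present it to T cells. Intestinal DCs are commonly divided by CD103, the integrin chain encoded by Itgae, and CD11b, the chain encoded by Itgam. CD103+ CD11b- cells are largely cDC1, and the CD11b+ cells with or without CD103 are largely cDC2, although the CD11b+ CD103- gate also collects cells of monocyte origin. A lymph node holds DCs that arrived from the tissue, which are mature and rich in the chemokine receptor CCR7, beside DCs that live in the node. The sort described for DCs of this study took live CD45+ CD64- MHCIIhigh CD11c+ cells and is stated for lamina propria cells of C57BL/6 mice. The gate of the present libraries is known from the subset labels only.

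The 6 libraries held between 23574292 and 31805879 counted reads, and between 21139 and 23347 genes with at least 1 read. Levels below are normalised read counts (CPM), that is counts relative to library sizes scaled by TMM, a method that sets the bulk of genes to no change, and they compare libraries and not genes, since they are not divided by gene length. Replicates of a group differed by far more than sampling noise, with a chi-square per gene of 19.8 to 50.5. Replicate 3 of both groups held Y-linked transcripts together with Xist. Ddx3y was at 58.01 CPM in the CD11b+ and 52.2 CPM in the double-positive replicate 3, and at no more than 0.213 CPM in the other libraries. Without both replicates 3, 2168 genes were called (967 higher and 1201 lower) in place of 2857.

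Itgal (chr7:127296260-127335138, GRCm38), which the genotype label names, was at 21.01, 18.1 and 23.01 CPM in the CD11b+ and 15.4, 9.56 and 13.1 CPM in the double-positive libraries. The groups did not overlap, but the difference did not pass the call rule (log2 -0.71 ± 0.22 SE, edgeR adjusted p = 0.0163) and passed it under total counts (log2 -1.07, edgeR adjusted p = 0.000762). With no wild-type library and counts per gene rather than per exon, these reads do not check the label.

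The transcript behind the CD103 gate followed the sort, and the transcript behind the CD11b gate was lower in the double-positive cells although both sorts are CD11b+. Itgae (chr11:73090583-73147446) was at 5.57, 6.65 and 5.69 CPM in the CD11b+ and 48.1, 49.1 and 41.1 CPM in the double-positive libraries, and every double-positive library lay above every CD11b+ library (log2 difference 2.95 ± 0.33 SE, edgeR adjusted p = 1.91e-06). Itgam (chr7:128062640-128118491) was at 25.7, 13.8 and 22.98 CPM in the CD11b+ and 4.88, 5.76 and 4.85 CPM in the double-positive libraries. The CD11b transcript was thus lower in the cells sorted as positive for both proteins, in all 3 libraries, than in the CD11b+ cells (log2 difference -2.01 ± 0.29 SE, edgeR adjusted p = 2.52e-05), and it was higher in them than in the lymph node CD103+ DCs, which had a mean of 0.438 CPM (log2 difference 3.55 ± 0.39 SE, edgeR adjusted p = 4.65e-06). Its partner chain Itgb2, which CD11a also uses, was 3.44-fold lower, from 669.8 ± 80.98 to 195 ± 11.4 CPM (SD, n = 3 in each group, here and below), and Itgb7, the partner of CD103, fell from 509.7 ± 14.6 to 154 ± 9.93 CPM (log2 difference -1.72 ± 0.26 SE, edgeR adjusted p = 3.95e-05). The genes common to all DCs differed less. Itgax, which encodes CD11c, went from 268 to 219 CPM and the MHC class II chain H2-Ab1 from 15249 to 12968 CPM, neither passing the rule (edgeR adjusted p = 0.0497 and 0.0632). Zbtb46, the transcription factor of conventional DCs, was at 175 and 208 CPM, and the cytokine receptor Flt3 at 437 and 799 CPM (log2 0.87, under the limit of 1).

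In total 2857 of the 17074 genes (16.7%) passed an adjusted p under 0.01 and a fold change over 2, the call rule used throughout. There were 1181 genes (6.92% of those tested) higher and 1676 (9.82%) lower in double-positive than in CD11b+ DCs. The fold change exceeded 4 for 397 of the higher and 546 of the lower genes, and 16 for 32 and 94. The CPM of the 3 and 3 libraries did not overlap for 2847 of the called genes, against 9463 (55.4%) of all genes tested, 25.1% on the higher and 30.3% on the lower side. Protein-coding genes made up 1012 of the higher and 1494 of the lower genes. The share of higher genes among those called depended on the scaling. It was 41.34% under TMM (95% exact binomial interval 39.5 to 43.2, counting error only) and 19.26% when libraries were set to equal total counts, where 697 genes (4.08%) were higher and 2922 (17.1%) lower, 3619 (21.2%) in all. The median log2 difference of all genes was -0.08 under TMM and -0.44 under total counts, and the values below read relative to these medians. TMM factors of the CD11b+ libraries were 1.169, 1.211 and 1.123, and those of the double-positive libraries 0.9179, 0.9012 and 0.8934. Under total counts 2373 of the 2857 genes were called in the same direction, 484 lost their call and 1246 other genes gained one.

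**Figure D1:**
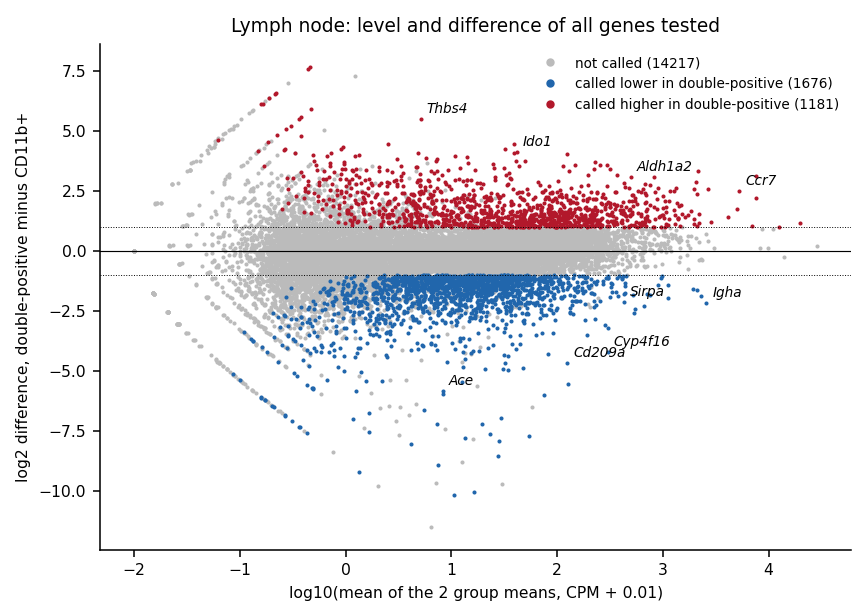
Mean level of each tested gene over both lymph node groups (horizontal axis, log10 CPM) against its log2 difference, double-positive minus CD11b+ (vertical axis), 1 point a gene and dotted lines at the fold limit. The 1181 genes called higher and 1676 called lower spread over most of the range of levels, with Ido1 and Ccr7 among the former and Cd209a and Cyp4f16 among the latter.

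**Figure D2:**
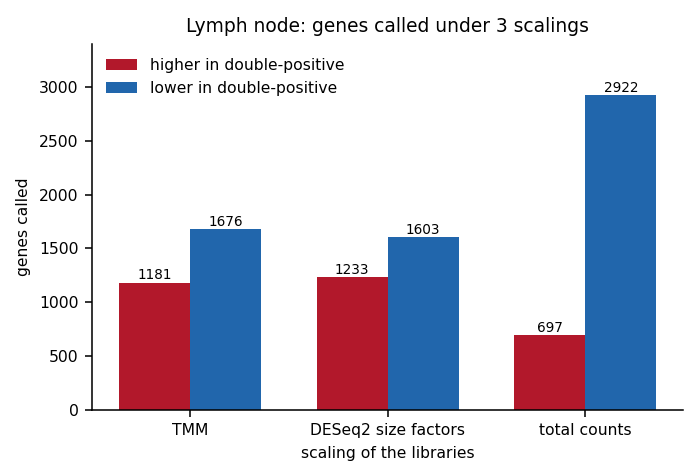
Number of genes called higher (red) and lower (blue) in double-positive than in CD11b+ lymph node DCs (vertical axis) under 3 ways of scaling the libraries (horizontal axis). More genes are lower than higher under each, and the gap widens from 1181 against 1676 under TMM to 697 against 2922 under total counts.

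Markers of other cells were read before the DC genes, because some of them differed between the sorts. Plasma cell genes were lower in the double-positive libraries for 6 of 7 members, and their summed level was 5010 to 6800 CPM in the CD11b+ and 805 to 2140 CPM in the double-positive libraries. Igha, the constant region of IgA, was at 4375, 3403 and 4866 CPM in the CD11b+ and 848, 1490.4 and 515 CPM in the double-positive libraries. Monocyte genes were lower for 5 of 8 (8 under total counts, summed 732 to 897 against 101 to 132 CPM) and macrophage genes for 8 of 11 (364 to 552 against 126 to 144 CPM). Of these 11 genes 1 had a positive difference (log2 1.05, unadjusted edgeR p under 0.05). It was called higher by DESeq2 and not by edgeR. Among the macrophage genes, Adgre1 (F4/80) was at 181, 119 and 207 CPM in the CD11b+ and 28.4, 32.1 and 37.01 CPM in the double-positive libraries. Cd163 was at 1.64, 1.79 and 1.998 CPM in the CD11b+ and 0.0781, 0 and 0.19002 CPM in the double-positive libraries, a call lost without double-positive replicate 1 or 2, and Mertk did not pass the rule (means of 1.81 and 0.795 CPM). NK cell and ILC genes were lower for 3 of 10 (5 under total counts, 406 to 726 against 345 to 385 CPM), with the NK receptor Ncr1 at 73.2, 118 and 75.1 CPM in the CD11b+ and 10.98, 15.3 and 18.7 CPM in the double-positive libraries. Of 6 plasmacytoid DC genes 3 were lower and 3 had positive differences, 1 at an unadjusted edgeR p under 0.05. Their sums overlapped (192 to 279 against 209 to 262 CPM). Of 5 neutrophil genes 3 were lower (1 without both replicates 3, 2 without CD11b+ replicate 1 or 3 or without double-positive replicate 2). Of 10 B cell genes 2 were lower, with overlapping sums (567 to 1060 against 688 to 717 CPM). Of 9 genes of stroma and endothelium 1 was lower (Pecam1, 2 under total counts). Of 11 epithelial genes 1 (Epcam) was higher under TMM but not under total counts. These last 2 shares, 11.1% and 9.09%, were near those of all genes tested, 9.82% lower and 6.92% higher. The 14 T cell genes had similar sums (440 to 845 against 441 to 753 CPM), and edgeR called 0 of them, with 0 at an unadjusted p under 0.05 and 0 called by DESeq2. In bulk libraries, fewer cells of a type and less of an RNA per cell cannot be told apart, and the part of these cells in the results below was not tested.

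The genes that DCs switch on as they mature rose together in the double-positive cells. Of the 24 members tested, 21 were higher and 1 was lower, with a median log2 difference of 1.98 (1.61 under total counts, with 17 higher and 1 lower), and without both replicates 3 the counts were 22 and 1. Ccr7 (chr11:99144196-99155077), the receptor that guides DCs to the lymph node, was at 1024, 1811 and 1879.7 CPM in the CD11b+ and 7902, 9865 and 9307 CPM in the double-positive libraries. The lowest double-positive library was thus more than 4 times the highest CD11b+ library (log2 difference 2.52 ± 0.29 SE, edgeR adjusted p = 2.33e-06). CD11b+ replicate 1 was the lowest of its group for Ccr7, Lad1 and Ccl22. It was also the lowest for other higher genes below, among them Aldh1a2, Ido1, Cd1d1 and Cxcl16, though not for Ly75 or Itgb8. CD11b+ replicate 2 was the lowest for several of the lower genes, among them Cd209a, Sirpa and Csf1r, though not for Egr1 or Tbx21. Fscn1, which encodes the actin bundler fascin of mature DC dendrites, rose 6.01-fold from 765 ± 69.9 to 4594 ± 686 CPM (edgeR adjusted p = 4.11e-08), and the calcium channel subunit gene Cacnb3 rose 6.19-fold. The largest fold in the list belonged to Lad1, a gene of the anchoring filament protein ladinin, at 130.02, 195 and 200.3 CPM in the CD11b+ and 1514, 1429 and 1496 CPM in the double-positive libraries (log2 difference 3.08 ± 0.42 SE, edgeR adjusted p = 1.67e-05). Chemokine genes of this list rose too. Ccl22, a ligand of CCR4, was at 344, 569.5 and 543 CPM in the CD11b+ and 2952, 3768 and 4061 CPM in the double-positive libraries (log2 difference 2.89 ± 0.27 SE, edgeR adjusted p = 3.28e-07). Ccl17, the other ligand of that receptor, rose from 17.3 ± 5.65 to 77.7 ± 3.28 CPM (log2 difference 2.17 ± 0.22 SE, edgeR adjusted p = 6.48e-07). Among the NF-kB genes, Relb went from 887 ± 136 to 2376 ± 138 CPM and Birc3 from 375 ± 55.4 to 1036 ± 85.7 CPM (log2 1.42 ± 0.12 and 1.47 ± 0.10 SE). The costimulatory genes did not move as one. Cd40 rose from 224 ± 19.9 to 752 ± 82.5 CPM, whereas Cd80 was the single member that fell, at 40.5, 29.995 and 41.3 CPM in the CD11b+ and 16.3, 18.2 and 17.7 CPM in the double-positive libraries (log2 difference -1.10 ± 0.18 SE, edgeR adjusted p = 0.000108), and Cd86 did not pass the rule (131 and 118 CPM, edgeR adjusted p = 0.409). Cd83, Cd274, Nfkb2 and Cd200 passed under TMM and not under total counts, and the calls of Cd83 and Nfkb2 were also lost without CD11b+ replicate 1, that of Nfkb2 without double-positive replicate 3 as well. Ccr7 in lymph node CD103+ DCs was at a mean of 11336 CPM, and it did not pass between them and the double-positive cells (log2 difference -0.33 ± 0.27 SE, edgeR adjusted p = 0.428).

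**Figure D3:**
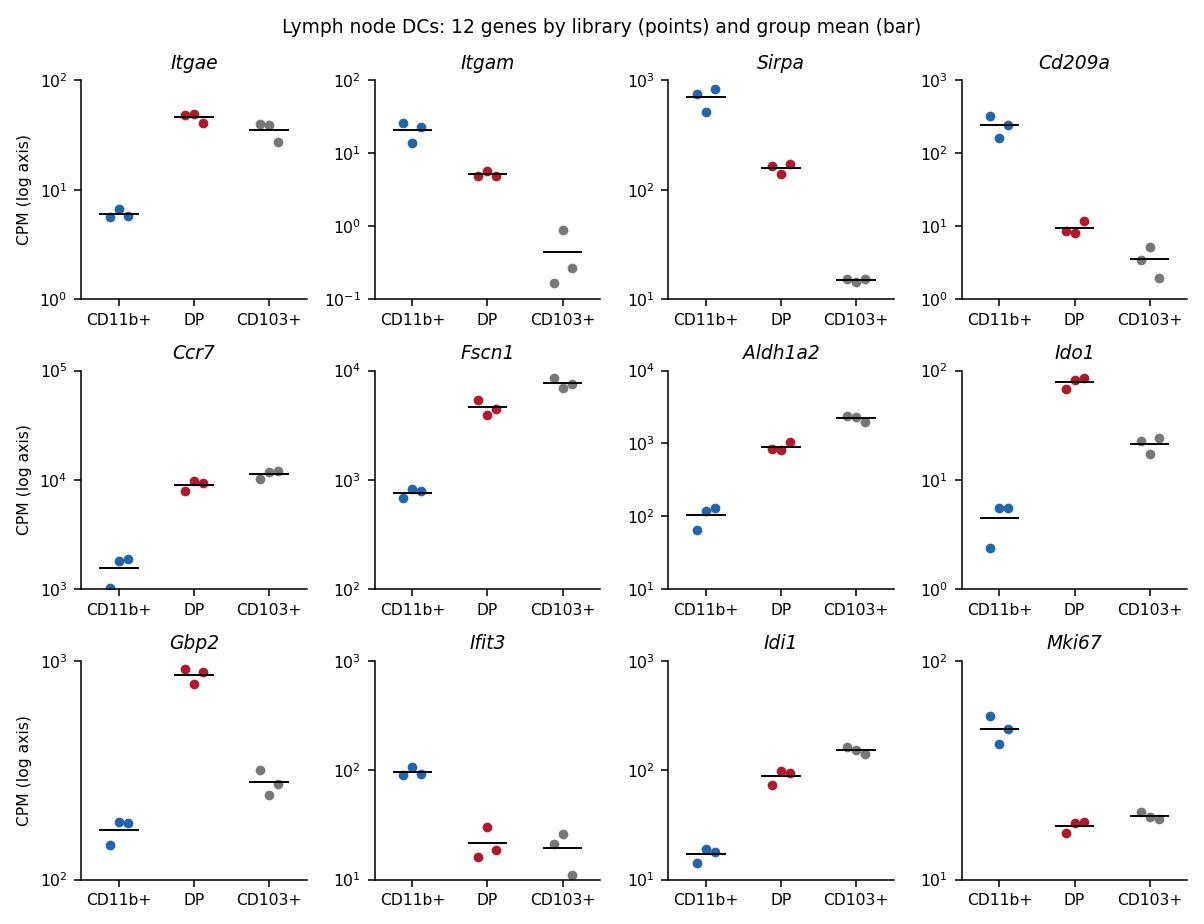
CPM (log axis) of 12 genes in each lymph node library, with CD11b+ in blue, double-positive (DP) in red, CD103+ in grey and a bar at each group mean. In every panel the 3 CD11b+ and the 3 double-positive libraries are separate, with Itgae, Ccr7, Fscn1, Aldh1a2, Ido1, Gbp2 and Idi1 higher and Itgam, Sirpa, Cd209a, Ifit3 and Mki67 lower in the double-positive libraries.

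Many C-type lectin receptors, which bind sugars, were lower in double-positive cells. Of 24 C-type lectin receptors tested, 17 were lower and 1 was higher (median log2 -2.17, and -2.54 under total counts, with 18 lower and 1 higher). Cd209a (chr8:3743397-3748984), a mouse homologue of human DC-SIGN, was at 320.01, 162 and 241 CPM in the CD11b+ and 8.59, 8.03 and 11.9 CPM in the double-positive libraries. This is a 25.5-fold lower mean, and the highest double-positive library was below the lowest CD11b+ library (log2 difference -4.67 ± 0.34 SE, edgeR adjusted p = 1.47e-08). Receptors of the Clec4a group, also called DCIR genes, fell strongly as well. Clec4a1 went from 59.1 ± 17.8 to 1.93 ± 0.197 CPM, Clec4a3 from 91.3 ± 42.7 to 3.09 ± 0.616 CPM and Clec4a4 from 57.8 ± 13.5 to 6.29 ± 1.605 CPM (log2 -4.94, -4.89 and -3.21), although reads of such near-identical genes, and of the Cd209 family, may be lost or split in counting. The macrophage galactose lectin genes Mgl2 and Clec10a went from 32.9 to 3.11 CPM and 27.1 to 2.17 CPM. Ly75, which encodes the endocytic receptor DEC-205, was the 1 called higher, at 38.1, 38.05 and 47.6 CPM in the CD11b+ and 112, 110.2 and 159 CPM in the double-positive libraries (log2 difference 1.62 ± 0.16 SE, edgeR adjusted p = 6.53e-07). Of the 24 lectins 4 had positive differences, all at an unadjusted edgeR p under 0.05. The largest of these, at log2 2.64, was not called. Of 9 Fc receptor genes 5 were lower, with Fcgr2b, the inhibitory IgG receptor, at 82.2, 37.7 and 72.8 CPM in the CD11b+ and 7.54, 10.995 and 6.94 CPM in the double-positive libraries. The common signalling chain Fcer1g fell from 639 ± 63.9 to 234 ± 25.3 CPM (log2 difference -1.45 ± 0.11 SE, edgeR adjusted p = 2.1e-08). Fits without 1 library, or without both replicates 3, called between 14 and 17 lectins lower. The call of Clec4n was lost without double-positive replicate 1, that of Cd209d without CD11b+ replicate 2 or double-positive replicate 1 or 3, and that of Cd209e in 5 of the 6.

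In the cDC2 list 7 of 14 genes were lower and 2 higher. Sirpa, a surface receptor that marks cDC2 and binds CD47, was at 742, 515 and 832 CPM in the CD11b+ and 165, 139 and 170.4 CPM in the double-positive libraries (log2 difference -2.14 ± 0.15 SE, edgeR adjusted p = 9.3e-09), and was higher in double-positive than in CD103+ DCs, which had a mean of 14.9 CPM (log2 difference 3.41 ± 0.16 SE, edgeR adjusted p = 1.02e-09). Csf1r, the receptor of the macrophage growth factor, was at 352, 210.5 and 404 CPM in the CD11b+ and 38.3, 38.9 and 55.2 CPM in the double-positive libraries (log2 difference -2.87 ± 0.26 SE, edgeR adjusted p = 2.08e-07). Cd1d1, which presents lipids to NKT cells, ran the other way, at 109, 219.9 and 197 CPM in the CD11b+ and 961, 1021 and 979 CPM in the double-positive libraries, and was higher in each double-positive library than in any CD11b+ library (log2 difference 2.49 ± 0.19 SE, edgeR adjusted p = 2.56e-08). Esam, an adhesion molecule of Notch-dependent cDC2, rose from 70.6 ± 9.87 to 187 ± 16.6 CPM. Irf4, the transcription factor of cDC2, was at 40.7 and 41.8 CPM (edgeR adjusted p = 0.875). The cDC1 list moved little, with Cadm1 higher and Wdfy4 lower among 15 genes and a median of -0.15. Under total counts Cadm1 lost its call, and 0 were higher and 2 lower (median -0.52). Xcr1 was at 46.2 and 75.5 CPM, Clec9a at 12.2 and 17.999 CPM and Irf8 at 405 and 689 CPM, none past the fold limit. Of 10 genes known from intestinal double-positive DCs, 4 were lower and 1 (Esam) higher. Another member had the largest positive difference of the list, log2 2.64 at an unadjusted edgeR p under 0.05, and was not called. Among the lower genes, the call of Trem1 was lost in 5 of the 6 fits without 1 library. That of Siglecf was lost in the fits of only the 6 or only the 9 lymph node libraries. Cd101, an inhibitory receptor, was at 25.9, 22.4 and 24.9 CPM in the CD11b+ and 8.09, 5.27 and 5.89 CPM in the double-positive libraries (log2 difference -1.93 ± 0.23 SE, edgeR adjusted p = 3.43e-06). Monocyte-associated genes moved with these lists. The chemokine receptor genes Ccr2 and Cx3cr1 went from 134 ± 27.9 to 21.03 ± 1.07 CPM and from 57.9 ± 19.2 to 5.51 ± 1.204 CPM, and the summed monocyte level of 732 to 897 against 101 to 132 CPM stands beside all lists of this paragraph and the last. Their part in the differences was not tested.

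**Figure D4:**
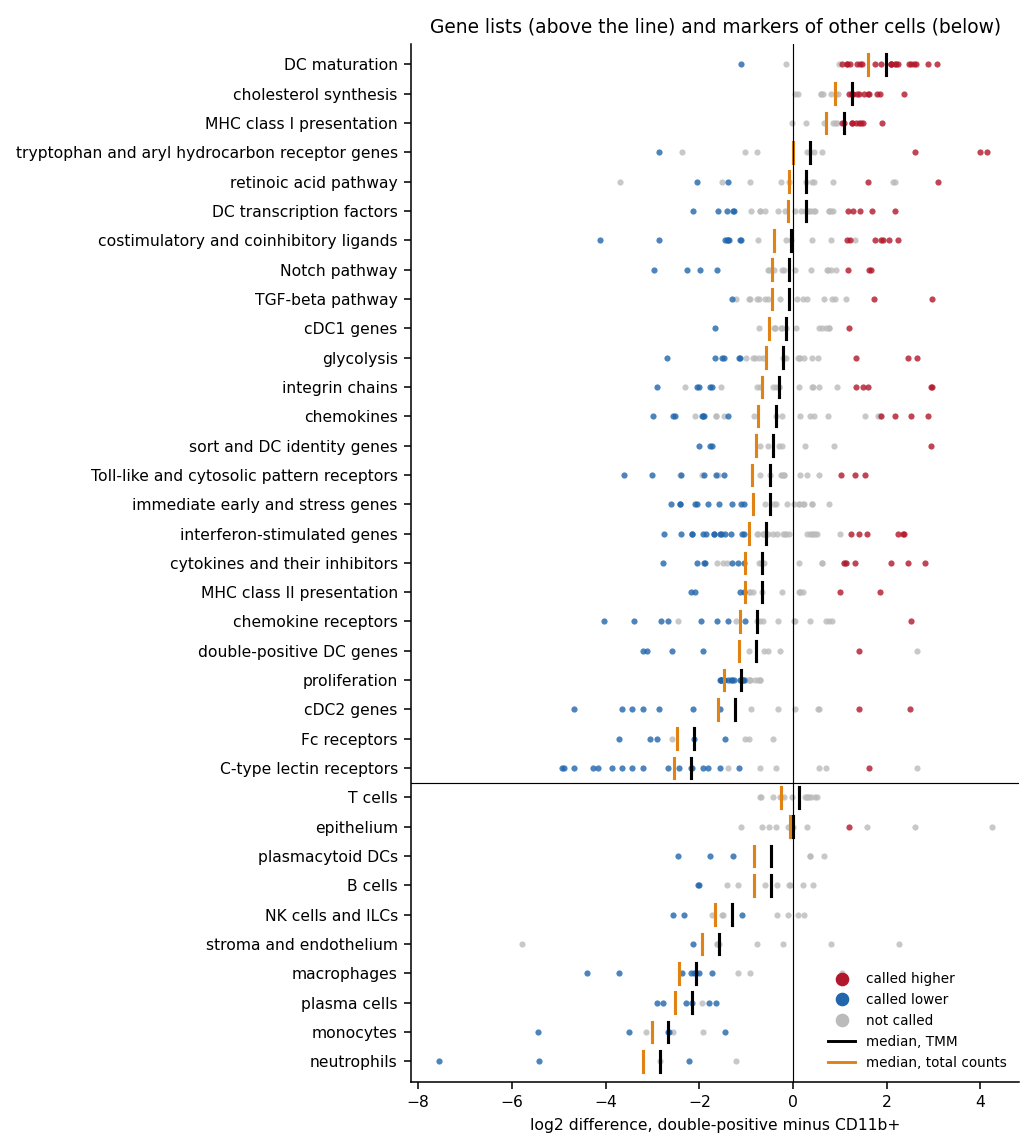
Log2 difference (double-positive minus CD11b+ lymph node DCs, horizontal axis) of each member of 25 gene lists and, below the line, of 10 lists of markers of other cells, with red and blue points for called genes and bars for the list median under TMM (black) and total counts (orange). DC maturation, cholesterol synthesis and MHC class I presentation have medians of 1.98, 1.26 and 1.08, and C-type lectin and Fc receptors lie lowest among the gene lists at -2.17 and -2.12.

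Antigen presentation split by class. For MHC class I, which displays peptides of the cytosol, 9 of 15 genes were higher and the other 6 did not pass (median log2 1.08). Under total counts 4 of the 15 were higher (median 0.71), so the size of this shift rests on the scaling, while 14 of the 15 differences were positive under TMM. Tap1 and Tap2 encode the subunits of the peptide transporter. Tap2 was at 163, 189.8 and 189 CPM in the CD11b+ and 466, 510.2 and 513 CPM in the double-positive libraries (log2 difference 1.46 ± 0.08 SE, edgeR adjusted p = 9.62e-10), and Tap1 rose from 497 ± 35.7 to 1323 ± 65.9 CPM. Psme2, a subunit of the proteasome activator PA28, rose 3.75-fold from 628 ± 71.2 to 2351 ± 254 CPM (log2 difference 1.91 ± 0.11 SE, edgeR adjusted p = 1.78e-09). Both Tap genes, Tapbp and Psme2 kept their call under total counts, and H2-K1, Psmb8, Psmb9, Psme1 and Nlrc5 lost it there. Without CD11b+ replicate 1 the calls of H2-K1 and Nlrc5 were lost, that of Nlrc5 without double-positive replicate 3 too. For MHC class II, which displays peptides of the endosome, the chains themselves did not pass. H2-Aa was at 9333 and 10285 CPM and the invariant chain gene Cd74 at 26494 and 30881 CPM (edgeR adjusted p = 0.233 and 0.119). The genes around the chains were called in both directions, 4 lower and 2 higher of 15 (8 and 1 under total counts). The 2 that rose were Lgmn and Ifi30, and Ifi30, at the fold limit, lost its call without CD11b+ replicate 1 or 2 or without double-positive replicate 3. The lower genes numbered 3 without CD11b+ replicate 1, 6 without CD11b+ replicate 2 and 5 without double-positive replicate 3. H2-Ob, part of the inhibitor of peptide loading H2-O, was at 281, 198 and 247 CPM in the CD11b+ and 47.97, 59.1 and 63.04 CPM in the double-positive libraries (log2 difference -2.09 ± 0.14 SE, edgeR adjusted p = 7.58e-09). March1, the ubiquitin ligase that removes MHC class II and CD86 from the surface of immature DCs, was at 83.6, 49.9 and 75.8 CPM in the CD11b+ and 13.2, 15.4 and 17.7 CPM in the double-positive libraries (log2 difference -2.18 ± 0.19 SE, edgeR adjusted p = 1.47e-07). Lgmn, which encodes the lysosomal protease legumain, rose from 122 ± 9.39 to 443 ± 12.5 CPM (log2 difference 1.86 ± 0.09 SE, edgeR adjusted p = 5.93e-10).

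Aldh1a2 (chr9:71215789-71296243), the retinal dehydrogenase that makes retinoic acid, was at 65.7, 119.7 and 131 CPM in the CD11b+ and 847, 813 and 1044 CPM in the double-positive libraries. The lowest double-positive library exceeded the highest CD11b+ library more than 6 times (log2 difference 3.10 ± 0.20 SE, edgeR adjusted p = 6.22e-09), and CD103+ DCs were higher still with a mean of 2216 CPM (log2 difference -1.30 ± 0.19 SE, edgeR adjusted p = 9.21e-05). Of 15 retinoic acid genes 2 were higher and 2 lower (2 and 3 under total counts). Dhrs3, a retinal reductase, rose from 54.5 ± 5.87 to 165 ± 7.39 CPM, and the receptor genes Rara and Rarg fell from 41.6 ± 1.78 to 15.9 ± 1.59 CPM and from 40.002 ± 4.17 to 9.68 ± 1.06 CPM. Itgb8, the integrin chain that pairs with alpha v to activate latent TGF-beta, was at 3.77, 3.54 and 2.997 CPM in the CD11b+ and 21.5, 27.4 and 32.1 CPM in the double-positive libraries (log2 difference 2.97 ± 0.31 SE, edgeR adjusted p = 8.64e-07). Of the 18 genes of the TGF-beta list 2 were higher and 1 lower (1 and 5 under total counts). Tgfb1 fell from 129.7 ± 17.997 to 52.6 ± 2.705 CPM, and Tgfb2 was called higher, a call lost in each of the 6 fits without 1 library. Tryptophan breakdown showed opposite changes at different steps. Ido1 (chr8:24584136-24597009), the enzyme of the first step, was at 2.37, 5.52 and 5.49 CPM in the CD11b+ and 68.3, 81.99 and 85.5 CPM in the double-positive libraries (log2 difference 4.14 ± 0.37 SE, edgeR adjusted p = 1.54e-07). It was higher there than in CD103+ DCs too, which had a mean of 21.3 CPM (log2 difference 1.88 ± 0.33 SE, edgeR adjusted p = 0.000462). Its paralogue Ido2 was at 0.609, 1.92 and 1.33 CPM in the CD11b+ and 18.99, 19.3 and 22.7 CPM in the double-positive libraries (log2 difference 3.98 ± 0.61 SE, edgeR adjusted p = 5.12e-05). Neither gene overlapped between the groups. Kmo, an enzyme further down the same pathway, was at 199.97, 128 and 179.99 CPM in the CD11b+ and 19.8, 24.1 and 25.8 CPM in the double-positive libraries (log2 difference -2.87 ± 0.16 SE, edgeR adjusted p = 1.46e-09). Ahrr, the repressor of the aryl hydrocarbon receptor, rose from 10.8 ± 0.323 to 66.4 ± 5.45 CPM, and Ahr itself did not pass (33.97 and 46.5 CPM).

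Genes induced by interferon were called in both directions. Of the 40 tested, 14 were lower and 6 higher (median log2 -0.57), against 19 and 5 under total counts (median -0.94). Without both replicates 3 there were 10 lower and 6 higher. The call of Ifit1 was lost without CD11b+ replicate 2 or double-positive replicate 3, that of Oas3 without double-positive replicate 1, and that of Ifi44 in 4 of the 6 fits without 1 library. The 6 that rose were Mx1, Usp18, Oasl1 and the guanylate-binding protein genes Gbp2, Gbp3 and Gbp5, whose products act against intracellular microbes. Oasl1 lost its call under total counts. Gbp2 was at 143, 183 and 181 CPM in the CD11b+ and 919, 781 and 886 CPM in the double-positive libraries (log2 difference 2.35 ± 0.16 SE, edgeR adjusted p = 9.93e-09) and Mx1 rose from 88.03 ± 18.7 to 454 ± 82.3 CPM (log2 difference 2.37 ± 0.19 SE, edgeR adjusted p = 5.52e-08). Among those that fell were the Ifit genes, whose products bind foreign RNA. Ifit2 was at 63.05, 65.4 and 60.8 CPM in the CD11b+ and 15.9, 28.7 and 24.3 CPM in the double-positive libraries (log2 difference -1.46 ± 0.20 SE, edgeR adjusted p = 1.5e-05), while Ifit3 and Ifit3b, which are near-identical, fell from 96.2 to 21.7 CPM and from 29.95 to 5.68 CPM. The chemokine gene Cxcl10 was at 49.04, 52.6 and 58.6 CPM in the CD11b+ and 9.18, 18.9 and 14.4 CPM in the double-positive libraries (log2 difference -1.91 ± 0.21 SE, edgeR adjusted p = 1.41e-06), and Irf7, a transcription factor of the interferon response, fell from 299 ± 23.5 to 102 ± 23.7 CPM. Stat2 and Irf9, which carry the interferon signal to the nucleus, did not pass, at log2 -0.16 and -0.21.

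The core of the interferon-stimulated response element (ISRE), here GAAA followed after any 2 bases by a second GAAA, occurs on either strand in the promoter window of 20 of the 30 interferon-stimulated genes for which a window was found, against 1079 of 27025 (3.99%) of all genes with a window. A window spans 250 bases before to 50 after a gene start in RefSeq (GRCm38.p6). It occurs in 3 of the 4 higher genes with a window and in 6 of the 12 lower ones. The windows of 2 genes that rose and 2 that fell are shown, chosen after their matches were seen, to let the same motif be compared in both, with each match in capitals (TTTC, any 2 bases and TTTC where it lies on the other strand) and 5′ to 3′ along the gene.
Gbp2, chr3:142620413-142620712, plus strand: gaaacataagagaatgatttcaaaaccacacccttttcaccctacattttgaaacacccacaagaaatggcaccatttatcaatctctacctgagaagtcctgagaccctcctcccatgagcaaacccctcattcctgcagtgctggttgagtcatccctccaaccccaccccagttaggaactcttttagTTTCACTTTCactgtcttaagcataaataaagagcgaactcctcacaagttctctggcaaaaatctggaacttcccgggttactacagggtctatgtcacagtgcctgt
Gbp5, chr3:142496684-142496983, plus strand: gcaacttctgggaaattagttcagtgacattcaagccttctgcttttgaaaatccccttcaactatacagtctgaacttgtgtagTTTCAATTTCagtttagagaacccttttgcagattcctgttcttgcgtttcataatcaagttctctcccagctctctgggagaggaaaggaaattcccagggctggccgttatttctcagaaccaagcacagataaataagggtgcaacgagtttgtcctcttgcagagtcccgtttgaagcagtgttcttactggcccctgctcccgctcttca
Ifit1, chr19:34640639-34640938, plus strand: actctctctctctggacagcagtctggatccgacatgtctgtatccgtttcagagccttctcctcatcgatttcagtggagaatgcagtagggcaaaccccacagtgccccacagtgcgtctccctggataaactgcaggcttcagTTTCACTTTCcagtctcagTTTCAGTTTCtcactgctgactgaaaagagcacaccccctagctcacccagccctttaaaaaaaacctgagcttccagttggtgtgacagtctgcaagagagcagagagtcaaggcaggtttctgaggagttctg
Cxcl10, chr5:92348840-92349139, minus strand: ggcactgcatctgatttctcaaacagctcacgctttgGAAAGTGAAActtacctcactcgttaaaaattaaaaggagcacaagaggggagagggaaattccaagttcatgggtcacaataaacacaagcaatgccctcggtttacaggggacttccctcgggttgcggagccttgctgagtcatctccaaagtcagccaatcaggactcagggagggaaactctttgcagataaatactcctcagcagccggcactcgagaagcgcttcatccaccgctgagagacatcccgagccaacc
A match is a description of these letters and does not show that the element is used. Ifit1 has 2 matches that do not overlap, and the other 3 windows have 1 each.

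Genes of cholesterol synthesis rose together. Of 21 genes tested 13 were higher and the other 8 did not pass, all 21 differences were positive, and the median was 1.26 (0.90 under total counts, where 7 were higher). Idi1, which isomerises the isoprenoid building block, was at 14.2, 19.2 and 17.98 CPM in the CD11b+ and 73.2, 97.4 and 95.1 CPM in the double-positive libraries. This is a 5.17-fold higher mean, with no overlap between the groups (log2 difference 2.37 ± 0.16 SE, edgeR adjusted p = 6.37e-09). Hmgcs1, an enzyme of the mevalonate pathway, was at 46.8, 59.5 and 59.8 CPM in the CD11b+ and 146, 187 and 179.5 CPM in the double-positive libraries (log2 difference 1.63 ± 0.13 SE, edgeR adjusted p = 6.32e-08), and Sqle, which oxidises squalene, rose from 45.4 ± 4.72 to 138 ± 16.9 CPM (log2 difference 1.61 ± 0.13 SE, edgeR adjusted p = 5.14e-08). The regulators Srebf2 and Insig1 went from 282 to 429 CPM and 19.97 to 30.2 CPM, under the fold limit. In the lamina propria the same genes had log2 differences between -0.02 and 1.13, and Fdft1 was called there. Their median there was 0.77, against -0.005 for all genes tested. Fdps, of which near-identical copies exist, lost its lymph node call without CD11b+ replicate 1 or double-positive replicate 2.

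The letters TCACNCCAC, the core of the sterol regulatory element through which SREBP factors act, occur on either strand in 388 of 27025 windows (1.44%). Of the 7 higher genes of the pathway with a window, Hmgcs1 holds them, and its window is shown for that reason with the match in capitals.
Hmgcs1, chr13:119690101-119690400, plus strand: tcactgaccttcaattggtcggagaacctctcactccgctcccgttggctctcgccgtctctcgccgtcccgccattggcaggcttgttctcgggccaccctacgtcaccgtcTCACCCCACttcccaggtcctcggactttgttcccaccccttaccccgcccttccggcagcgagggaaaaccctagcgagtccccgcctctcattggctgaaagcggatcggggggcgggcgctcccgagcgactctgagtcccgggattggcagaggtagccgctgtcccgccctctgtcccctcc
The absence of these letters from the other windows says nothing of the factor.

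Cell cycle genes were lower in the double-positive cells. Of 24 tested, 16 were lower and the other 8 did not pass, with every log2 difference between -1.55 and -0.71 (median -1.12). Under total counts all 24 passed, and without both replicates 3 there were 12. Fits without 1 library called up to 20. Mki67, the proliferation marker Ki-67, was at 55.9, 41.6 and 48.8 CPM in the CD11b+ and 16.3, 18.1 and 18.2 CPM in the double-positive libraries (log2 difference -1.48 ± 0.13 SE, edgeR adjusted p = 2.02e-07), and Top2a, the topoisomerase of dividing cells, fell from 72.2 ± 15.4 to 27.7 ± 1.44 CPM. CD103+ DCs had a mean of 19.6 CPM of Mki67, and the difference from the double-positive cells did not pass (log2 difference -0.16 ± 0.13 SE, edgeR adjusted p = 0.437). In the same libraries 6 of 7 plasma cell genes and 3 of 10 NK cell and ILC genes were lower (sums given above). Whether dividing cells of another type took part was not tested.

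Immediate early genes, which cells switch on within minutes of a stimulus or of handling, were lower for 10 of 22 members, and the other 12 did not pass. Fosb lost its call without CD11b+ replicate 2 or double-positive replicate 1. Egr1 was at 850.3, 1058 and 868 CPM in the CD11b+ and 159, 187 and 175 CPM in the double-positive libraries (log2 difference -2.41 ± 0.20 SE, edgeR adjusted p = 9.1e-08). Nr4a1, an orphan nuclear receptor, varied more among replicates, at 539.6, 859.5 and 1341 CPM in the CD11b+ and 79.5, 137 and 237 CPM in the double-positive libraries, and the groups were still apart (log2 difference -2.60 ± 0.38 SE, edgeR adjusted p = 3.02e-05). Fos fell from 2856 ± 39.9 to 962 ± 179 CPM and Jun from 1314 ± 116 to 606 ± 58.9 CPM, whereas Dusp1, Zfp36 and Atf3 of the same list did not pass (log2 0.41, 0.12 and 0.21). The heat shock gene Hspa8 was at 1104 and 1205 CPM.

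Of 28 transcription factors of DCs, 5 were higher and 5 lower (3 and 7 under total counts), and the list median changed sign with the scaling (0.27 under TMM, -0.10 under total counts). Id2, needed for several DC and ILC lineages, was at 681, 1038 and 924 CPM in the CD11b+ and 2614, 3050.3 and 2868 CPM in the double-positive libraries (log2 difference 1.69 ± 0.19 SE, edgeR adjusted p = 2.29e-06). Nr4a3, linked to DC migration, rose from 16.8 ± 6.37 to 75.6 ± 2.29 CPM, and Bcl6 and Rbpj passed under TMM only. Tbx21, which encodes T-bet, was at 63.1, 76.1 and 78.5 CPM in the CD11b+ and 15.8, 17.8 and 15.9 CPM in the double-positive libraries (log2 difference -2.14 ± 0.24 SE, edgeR adjusted p = 2.3e-06). T-bet is shared with NK cells and ILCs, whose summed markers were 406 to 726 against 345 to 385 CPM, and their part in this difference was not tested. Runx3, Tcf4, Ikzf1 and Bcl11a were lower too, the last from 47.5 ± 6.23 to 15.7 ± 1.81 CPM. The Notch list held 3 higher and 4 lower genes of 18. The ligand genes Jag1 and Jag2 rose from 13.3 ± 1.31 to 41.9 ± 7.97 CPM and from 2.303 ± 0.604 to 7.12 ± 1.47 CPM, while the target Hes1 and the ligand Dll1 fell from 17.6 ± 4.95 to 2.25 ± 0.532 CPM and from 35.04 ± 16.4 to 7.25 ± 1.81 CPM, the last a call lost without CD11b+ replicate 2 or double-positive replicate 2 or 3.

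Secreted signals changed in both directions. Of 25 chemokines 4 were higher and 7 lower. Beside Ccl22 and Ccl17, Cxcl16, the ligand of CXCR6, was at 274, 446 and 416 CPM in the CD11b+ and 2156, 2183 and 2129 CPM in the double-positive libraries (log2 difference 2.51 ± 0.17 SE, edgeR adjusted p = 8.65e-09), and Ccl5 rose from 605 ± 106 to 2224 ± 318 CPM. Ccl3 and Ccl4, which encode inflammatory chemokines, fell from 121 ± 47.9 to 21.1 ± 7.06 CPM and from 156 ± 52.3 to 26.3 ± 7.696 CPM, and Ccl6 and Ccl9 also fell. Ccl2 and Ccl7 lost their calls in 5 of the 6 fits without 1 library each. Of 21 chemokine receptors Ccr7 was the 1 that rose, and 8 fell (6 in each fit without 1 library), among them Ccr2, Cx3cr1 and Ccr6, the receptor of CCL20, which went from 115 ± 9.64 to 44.2 ± 1.74 CPM (log2 difference -1.38 ± 0.22 SE, edgeR adjusted p = 9.49e-05). Cytokine genes had 6 higher and 7 lower members of 25 (2 and 8 under total counts, which removed Il10, Il18bp, Il27 and Ebi3). Il12b, the shared subunit of the cytokines IL12 and IL23, was at 25.3, 29.995 and 28.04 CPM in the CD11b+ and 94.6, 157 and 204 CPM in the double-positive libraries (log2 difference 2.45 ± 0.31 SE, edgeR adjusted p = 6.57e-06), and Il15, which sustains NK and memory T cells, rose from 33.5 ± 7.33 to 144 ± 11.8 CPM (log2 difference 2.10 ± 0.14 SE, edgeR adjusted p = 7.09e-09). Ltb, the lymphotoxin beta gene, was at 568, 598 and 591 CPM in the CD11b+ and 162, 166 and 149.7 CPM in the double-positive libraries (log2 difference -1.88 ± 0.24 SE, edgeR adjusted p = 8.42e-06), and Tnf fell from 77.02 ± 2.21 to 34.2 ± 6.61 CPM. Il10 was called higher at 0.396, 1.36 and 0.4995 CPM in the CD11b+ and 4.26, 6.81 and 4.798 CPM in the double-positive libraries, a call that was lost in 5 of the 6 fits that left out a library and under total counts. Fits without 1 library, or without both replicates 3, called 4 to 5 cytokine genes higher and 5 to 6 lower. The calls of Il18, Il18bp, Ebi3, Lta and Csf2 were also lost in some of these fits.

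Among 21 genes of costimulatory and coinhibitory ligands 7 were higher and 8 lower. Without both replicates 3 the lower genes numbered 5, with Tnfsf4, Tnfsf14 and Cd276 no longer called. Pdcd1lg2, which encodes the PD-1 ligand PD-L2, was at 24.1, 29.6 and 28.4 CPM in the CD11b+ and 118, 119 and 150.4 CPM in the double-positive libraries (log2 difference 2.24 ± 0.16 SE, edgeR adjusted p = 1.2e-08), and Pvr, a ligand of CD226 and TIGIT, rose from 13.01 ± 2.76 to 49.4 ± 11.9 CPM. Havcr2, which encodes TIM-3, and Lgals9, which encodes its ligand galectin-9, both fell, from 97.2 ± 15.2 to 37.9 ± 4.67 CPM and from 112 ± 4.56 to 40.8 ± 8.72 CPM. Pattern receptors were lower for 6 of 21 and higher for 3 (8 and 1 under total counts). Tlr7, which senses RNA, was at 21.5, 19.8 and 25.2 CPM in the CD11b+ and 1.37, 1.22 and 2.898 CPM in the double-positive libraries (log2 difference -3.61 ± 0.58 SE, edgeR adjusted p = 7.95e-05), Nod1, a sensor of bacterial peptidoglycan, fell from 119 ± 21.2 to 22.6 ± 3.33 CPM, and Tlr11, which senses profilin, rose from 36.1 ± 3.31 to 104 ± 18.1 CPM. The integrin list held 5 higher and 5 lower genes of 23, with Itga5 and Itgb1, the chains of the fibronectin receptor, higher. Itga5 rose from 34.5 ± 4.55 to 105 ± 9.09 CPM, and Itgb1 passed under TMM but not under total counts. In glycolysis 3 of 23 genes rose and 6 fell (2 and 10 under total counts). Pfkfb3, which makes the activator of phosphofructokinase, was at 180.2, 299 and 292 CPM in the CD11b+ and 1371, 1391 and 1492 CPM in the double-positive libraries (log2 difference 2.46 ± 0.15 SE, edgeR adjusted p = 3.05e-09), and Slc2a3, the glucose transporter GLUT3, fell from 69.4 ± 7.197 to 10.9 ± 3.28 CPM (log2 difference -2.68 ± 0.29 SE, edgeR adjusted p = 1.12e-06).

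Among genes with separate libraries in both sorts and a mean of 10 CPM or more on the higher side, the largest folds included many outside the lists. Predicted gene models and antigen receptor segments are left out of this ranking. Thbs4, a thrombospondin of the extracellular matrix, rose most, from 0.0609, 0.1298 and 0.466 to 7.93, 8.83 and 13.4 CPM (log2 difference 5.52 ± 0.53 SE, edgeR adjusted p = 9.75e-07), while CD103+ DCs had a mean of 56.3 CPM, above both (log2 difference -2.48 ± 0.40 SE, edgeR adjusted p = 0.000361 for double-positive minus CD103+). Syngr3, a synaptic vesicle protein gene, was at 2.68, 3.77 and 3.63 CPM in the CD11b+ and 79.2, 71.97 and 74.9 CPM in the double-positive libraries (log2 difference 4.49 ± 0.62 SE, edgeR adjusted p = 1.88e-05), and the matrix gene Fbln5, the phosphatase inhibitor gene Ppp1r1a, and Fndc5 followed with 19.3-fold, 16.99-fold and 16.4-fold. Syngr3 and Fbln5 were also higher than in CD103+ DCs, with means of 14.001 and 16.2 CPM there (log2 2.43 and 1.91, edgeR adjusted p = 0.0042 and 0.00475). Of the falls, Ace, the angiotensin-converting enzyme, was the largest, at 17.8, 6.59 and 24.8 CPM in the CD11b+ and 0.195, 0 and 0.713 CPM in the double-positive libraries, with CD11b+ replicate 2 the lowest of its group (log2 difference -5.83 ± 1.21 SE, edgeR adjusted p = 0.000905). Ly6i, a Ly6 family gene, was at 84.5, 34.2 and 82.4 CPM in the CD11b+ and 1.33, 3.07 and 2.04 CPM in the double-positive libraries (log2 difference -4.95 ± 0.42 SE, edgeR adjusted p = 8.46e-08), and the receptor genes Cd300lb, Sirpb1a and Sirpb1b fell 28.8-fold, 19.7-fold and 22.4-fold, the last pair being near-identical in sequence. The smallest p-values belonged to other genes. Cyp4f16, a cytochrome P450 gene, fell 18.4-fold from 569 ± 106 to 30.9 ± 3.04 CPM (edgeR adjusted p = 1.57e-10), and Suox, sulfite oxidase, was at 39.9, 42.98 and 43.99 CPM in the CD11b+ and 190.1, 206 and 209 CPM in the double-positive libraries (log2 difference 2.25 ± 0.09 SE, edgeR adjusted p = 2.64e-10). Nans, which makes sialic acid, rose from 74.9 ± 4.57 to 254 ± 10.3 CPM, and Ifngr1, a chain of the interferon gamma receptor, fell from 682 ± 52.5 to 203 ± 16.04 CPM (log2 difference -1.75 ± 0.08 SE, edgeR adjusted p = 5.56e-10). Cd244a, Cd82, Hhex, Chn2 and Nrros also fell with small p, with log2 differences of -3.04, -1.91, -2.16, -2.22 and -3.07.

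The same pair of sorts from the lamina propria shares no library with the lymph node pair and served as the comparison. There 821 genes (4.81%) were called, 194 (1.14%) higher and 627 (3.67%) lower in double-positive DCs. Of these, 348 were called the same way in both tissues (92 higher, 256 lower), which is 12.2% of the lymph node calls and 42.4% of the lamina propria calls, and 56 were called in opposite directions. The difference between the tissues was tested directly, as the lymph node difference minus the lamina propria difference. It passed the rule for 1987 genes (11.6%), 973 higher (5.7%) and 1014 lower (5.94%), and for 1471 of the 2857 lymph node calls. Itgae differed between the sorts in both tissues (log2 2.27 ± 0.30 SE in the lamina propria) and the tissue test did not pass (0.68 ± 0.43, edgeR adjusted p = 0.26). Ccr7 and Ccl22 were also higher in lamina propria double-positive cells (log2 1.85 ± 0.28 and 2.22 ± 0.27 SE), from means of 43.4 and 147 CPM. Of the 24 maturation genes, 7 were called higher and 0 lower there (median log2 0.44). For Itgam the tissues differed. Its lamina propria means were 61.3 CPM in CD11b+ and 68.5 CPM in double-positive DCs (log2 0.16 ± 0.26 SE), so the lower CD11b transcript of the lymph node was not seen there (difference -2.17 ± 0.39, edgeR adjusted p = 0.000445). Cd209a showed the same form, with lamina propria means of 2064 and 2131 CPM (difference -4.72 ± 0.43, edgeR adjusted p = 7.39e-07).

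**Figure D5:**
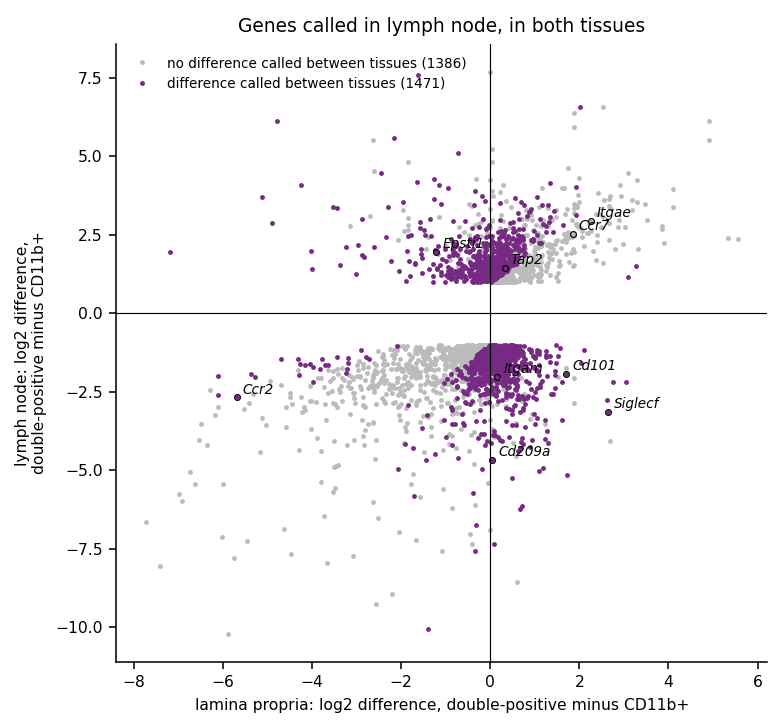
Log2 difference of double-positive minus CD11b+ DCs in the lamina propria (horizontal axis) and in the lymph node (vertical axis) for the 2857 genes called in the lymph node, with the 1471 that also differed between tissues in purple. Itgae and Ccr7 are higher in both tissues, Siglecf and Cd101 are higher in the lamina propria and lower in the lymph node, and Cd209a lies near no difference in the lamina propria.

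Some genes changed sides. Cd101 had lamina propria means of 84.1 and 274 CPM (log2 1.70 ± 0.21 SE), and Siglecf, a sialic acid binding lectin, 23.4 and 147 CPM (log2 2.65 ± 0.51 SE), each higher in double-positive cells there and lower in the lymph node. The tissue differences were -3.63 ± 0.31, edgeR adjusted p = 3.9e-07, and -5.77 ± 0.85, edgeR adjusted p = 7.91e-05. In the lymph node Siglecf was low, at 1.52, 5.71 and 7.26 CPM in the CD11b+ and 0.508, 0 and 1.28 CPM in the double-positive libraries, and its call there was lost in the fit of only the 6 libraries and in the fit of only the 9 lymph node libraries. Adgre1, which encodes the macrophage antigen F4/80, went from 169 to 32.5 CPM in the lymph node and was higher in lamina propria double-positive cells (log2 1.04 ± 0.22 SE, difference -3.41 ± 0.32, edgeR adjusted p = 1.17e-06). Ccr2 was lower in double-positive cells of both tissues, and more so in the lamina propria (log2 -5.69 ± 0.47 SE, from 344 to 6.64 CPM, difference 3.02 ± 0.57, edgeR adjusted p = 7e-04). By list, the tissue difference was called higher for 15 and lower for 2 of 24 maturation genes, higher for 9 of 15 MHC class I genes, lower for 15 of 24 cell cycle genes, lower for 9 and higher for 1 of 22 immediate early genes, and lower for 11 and higher for 1 of 24 C-type lectins. The cell cycle genes had lamina propria log2 differences between -0.37 and 0.55, and the MHC class I genes between -0.31 and 0.36. Cholesterol synthesis differed between tissues for 1 of 21 genes, Idi1 (1.41 ± 0.21, edgeR adjusted p = 0.000109). Plasma cell genes were lower in double-positive cells of both tissues, by a median log2 of -2.15 in the lymph node and -2.65 in the lamina propria.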

How the data were processed

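RNA of DCs sorted as CD11b+, CD103+ or double-positive from the lymph node and the lamina propria was sequenced, and the 18 libraries were grouped by their labels. The authors deposited raw read counts per gene, with no normalization, for 54232 Ensembl genes, of which 54079 matched a symbol. Per the labels these libraries were prepared and sequenced alongside other DC libraries of the study, for which the methods give SMART-seq v4, STAR to GRCm38, uniquely aligned reads and Ensembl 93 models, counted without regard to strand. The submitters' processing notes name FastQC 0.11.7 and STAR 2.6, and further steps for these libraries are not given in the sources used here. Reads of near-identical genes may be lost in such counting, and reads of overlapping genes on opposite strands cannot be told apart.

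From the counts, genes passing edgeR's filterByExpr with the 6 groups were fitted once over all 18 libraries with edgeR 4.0.16 (R 4.3.3, limma 3.58.1) by the quasi-likelihood method on TMM-scaled library sizes, and p-values were adjusted over all genes tested by Benjamini-Hochberg. A gene was called at an adjusted p under 0.01 and a fold change over 2. The difference between tissues was a contrast of the same fit. The SE of a log2 difference was derived from the test, as its absolute value divided by the square root of the quasi-likelihood F statistic. CPM were computed on the TMM-scaled library sizes, and the scripts were tested on simulated data. Depth was 23574292 to 31805879 reads in the 6 libraries. Alternatives were total counts, DESeq2 size factors, the DESeq2 1.42.0 test, other filters, thinned depth, an adjusted p under 0.05, fits of fewer libraries, a replicate block and leaving out libraries. Leaving out both replicates 3 and leaving out genes of chromosomes X and Y were added after seeing the data. Gene positions are those of GENCODE M21 (GRCm38), and promoter windows are from RefSeq (GRCm38.p6), with 11442 of the genes tested matched to a window.

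The genes named were the sort genes, members of the gene lists, the 12 largest rises and falls and the 8 smallest p in each direction among called genes whose libraries were separate between the sorts, with a mean of 10 CPM or more on the higher side and an equal call under total counts, and the 6 smallest p in each direction of the tissue difference. For these 6 the same conditions applied in the lymph node, except that libraries did not have to be separate. Predicted gene models and antigen receptor segments were left out of the ranked names. The comparison and the lists were chosen with earlier results of these data known.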

Additional observations from a re-analysis of the deposited data

Results flagged for a closer look

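The difference between double-positive and CD11b+ DCs itself differed between lymph node and lamina propria for 1987 genes, by a test of the lymph node difference minus the lamina propria difference in edgeR. The 12 genes below, 6 in each direction, are given with that value on the log2 scale. They had the smallest p for it among genes also called in the lymph node. That lymph node call had to hold under total counts too, with a mean of 10 CPM or more on the higher side. Each of the 12 therefore differs in the lymph node by this choice, and genes that differ in the lamina propria only could not appear.

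Suox, Nans, Laptm4b, Rnf19a and Rab20 had a higher difference in the lymph node. For Suox the value was 2.43 (2.25 in the lymph node and -0.17 in the lamina propria), for Nans 1.68 (1.76 in the lymph node and 0.08 in the lamina propria) and for Laptm4b 3.82 (3.44 in the lymph node and -0.37 in the lamina propria). For Rnf19a it was 2.23 and for Rab20 2.80. Epsti1, an interferon-responsive gene, was called in opposite directions in the tissues, with 1.96 in the lymph node and -1.21 in the lamina propria and a value of 3.17. Its means were 233 and 905 CPM in lymph node CD11b+ and double-positive DCs and 75.7 and 32.7 CPM in those of the lamina propria.

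Cd244a, Cyp4f16, Cd82, Hhex and Chn2 had a lower difference in the lymph node. Cd244a, a receptor of the SLAM family, had a value of -3.47 (-3.04 in the lymph node and 0.43 in the lamina propria) and Cyp4f16 of -4.08 (-4.20 in the lymph node and -0.13 in the lamina propria). The tetraspanin gene Cd82 had -2.50, the homeobox gene Hhex -2.52 and Chn2 -2.48. Slc36a3os was called in opposite directions, with -2.34 in the lymph node and 1.12 in the lamina propria and a value of -3.46. It is named as an opposite-strand transcript, and its reads cannot be told apart from those of an overlapping gene where strand was not used in counting. With groups of 3 libraries, no single library was tested as standing apart.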

How the results depend on the processing

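The number of genes called stayed within 1.5 times of 2857 under every alternative run, from 2168 to 3632, and no gene called here was called in the opposite direction under any of them. Total counts moved the higher genes to 697 and the lower genes to 2922. The percent of called genes that were higher in double-positive DCs moved from 41.3 to 43.5 with DESeq2 size factors, 19.3 with total counts, 46.1 in the fit of the 9 lymph node libraries and 44.6 without both replicates 3. Leaving out 1 library at a time gave 2410 to 2658 genes called, 949 to 1098 higher, 1406 to 1587 lower, 39.4 to 42.7 percent higher, and 1649 to 1903 genes that differed between tissues. Between 81.3 and 86.5 percent of the 2857 calls were kept in these fits, and 72.8 percent without both replicates 3. Leaving out chromosomes X and Y kept 2783 calls. The DESeq2 test called 3176 genes, of which 2771 were shared. With the replicate number as a block, 2905 genes were called over all 18 libraries (2725 shared) and 3068 over the 6 libraries. Same-numbered libraries correlated at 0.0336, 0.0413 and 0.129 in their deviations from the group means, under the limit of 0.1 for 2 of the 3, so the numbers were not read as pairing. The replicate 3 libraries, at 0.096 over autosomal genes, both held Y-linked transcripts. Whether they came from the same animals was not tested. Each CD11b+ library correlated best with its own number, but double-positive replicate 1 did so with CD11b+ replicate 2. Of 286 called genes among the 577 named or listed, 216 kept their call throughout, 51 lost it when a library or both replicates 3 were left out and 42 under another alternative, with 23 counted under both. None of the 286 changed sign, and 70 genes not called gained a call under some alternative. Total counts turned the sign of 4 list medians, those of DC transcription factors, retinoic acid, tryptophan and aryl hydrocarbon receptor genes, and T cells. Without genes under 100 counts in 3 libraries the medians of chemokines, costimulatory ligands and Notch genes turned to 0.142, 0.396 and 0.205. Without 1 library or both replicates 3 those of costimulatory ligands, Notch, TGF-beta and T cell genes also turned in some fits, as did that of the sex-linked genes. The median of the epithelial genes was 0. The cause of these changes was not tested. Thinning to equal depth called 2844 genes and kept 96 percent of the calls, and testing the 11643 genes with at least 100 counts in 3 libraries called 2570. All intervals cover counting error only.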
